A study of Mus musculus with 2 samples.

Results

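The 10 genes described here encode chaperones of the endoplasmic reticulum (ER) and regulators of the unfolded protein response: Hspa5, Hsp90b1, Calr, Pdia4, Pdia6, Dnajb9, Sdf2l1, Xbp1, Atf4 and Ddit3. They were chosen by symbol, and all 10 were found among the 17044 gene symbols of the deposited table. The cells were taken from irradiated wild type C57BL/6 mice, from the epithelium of the colon, 2 weeks after exposure, and the study's title places them in work on radiation proctitis and transplanted colonoids, which are organoids grown from colon crypts. There was 1 group with 2 single-cell RNA libraries, which carry the same sample name in the labels. Neither the age of the animals nor which cells descend from a graft is in the labels, and no unirradiated group was analysed here. The table gives averages for 12 clusters, numbered 0 to 11, and does not separate the libraries, so no value has a replicate and no test was made.

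Levels are mean UMIs (counted RNA molecules) per 10000 UMIs of a cell, written below as a level per 10000. The 12 clusters held 3082 cells by the arithmetic of the averages, between 19 (cluster 11) and 482 (cluster 0) each, and about 48845 UMIs lay behind the levels of the 10 genes. Intervals are exact Poisson 95% intervals and cover counting error only. The median cell held 1430 UMIs (cluster 5, the shallowest), 2505 (cluster 6) or between 6559 and 19522 (the other 10). By marker lists, cluster 0 was goblet-like (12 of 12 markers past a 2-fold difference from the other clusters' mean), cluster 11 enteroendocrine-like (12 of 12), cluster 7 proliferating-like (8 of 8) and cluster 5 neutrophil-like (7 of 8). Clusters 8 and 9 were absorptive colonocyte-like (8 and 5 of 10). Cluster 10 joined several immune types and, like clusters 1, 2, 3, 4 and 6, is given by number. Such clusters are drawn from expression itself, so differences between clusters are a description.

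The ER folds proteins that a cell secretes or places in its membranes. When unfolded proteins build up, sensors in the ER membrane start the unfolded protein response: IRE1 splices the Xbp1 message, PERK raises translation of ATF4, and ATF6 is cut to release a transcription factor. These factors raise ER chaperones, disulfide isomerases and degradation enzymes, and prolonged PERK signalling induces Ddit3 (CHOP), a factor linked to cell death. In the gut, goblet cells fold large amounts of disulfide-rich mucin, and mice without Xbp1 or the IRE1 paralogue Ern2 in the intestine have defects of secretory cells.

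ATF6 and XBP1 act on chaperone promoters through the ER stress response element, written CCAAT, any 9 bases, then CCACG. The element was searched on both strands of RefSeq promoter windows of GRCm38.p6, which run from 250 bases before to 50 bases after the start of each gene. It was found in 4 of the 10 promoters, against 39 of all 32851 windows of the same length (0.119%). These 4 are shown because they carry the element, which is in capitals, on the strand of the gene. The window of Hspa5 is chr2:34771840-34772139 (plus strand), that of Hsp90b1 chr10:86705395-86705694 (minus strand), that of Calr chr8:84846882-84847181 (minus strand) and that of Pdia6 chr12:17266339-17266638 (plus strand). A match on the opposite strand reads as CGTGG, any 9 bases, then ATTGG.
Hspa5: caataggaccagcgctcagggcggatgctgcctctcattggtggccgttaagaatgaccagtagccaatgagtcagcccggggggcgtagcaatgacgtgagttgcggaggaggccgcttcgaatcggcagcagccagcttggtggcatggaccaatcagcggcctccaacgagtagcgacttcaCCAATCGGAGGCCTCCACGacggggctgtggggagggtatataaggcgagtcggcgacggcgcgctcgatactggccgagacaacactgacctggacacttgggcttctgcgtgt
Hsp90b1: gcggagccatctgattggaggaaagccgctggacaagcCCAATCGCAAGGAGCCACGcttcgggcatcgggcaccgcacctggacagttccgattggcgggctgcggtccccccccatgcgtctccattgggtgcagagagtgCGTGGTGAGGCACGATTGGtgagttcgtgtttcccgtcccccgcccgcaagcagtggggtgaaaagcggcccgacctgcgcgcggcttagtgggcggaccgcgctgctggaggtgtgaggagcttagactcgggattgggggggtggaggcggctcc
Calr: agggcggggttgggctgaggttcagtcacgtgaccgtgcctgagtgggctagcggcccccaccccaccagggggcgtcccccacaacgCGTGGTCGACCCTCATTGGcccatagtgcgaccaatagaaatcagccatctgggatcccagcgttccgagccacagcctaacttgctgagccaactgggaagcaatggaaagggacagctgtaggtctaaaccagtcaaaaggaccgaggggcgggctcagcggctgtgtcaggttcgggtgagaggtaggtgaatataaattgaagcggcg
Pdia6: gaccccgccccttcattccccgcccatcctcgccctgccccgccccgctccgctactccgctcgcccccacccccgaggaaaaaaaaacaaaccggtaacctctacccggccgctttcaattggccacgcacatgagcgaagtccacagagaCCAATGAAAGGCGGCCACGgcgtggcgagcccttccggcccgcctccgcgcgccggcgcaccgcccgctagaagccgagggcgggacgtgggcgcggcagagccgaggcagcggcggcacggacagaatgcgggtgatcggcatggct
The match in Hspa5 began 65 bases upstream of the RefSeq start and that in Pdia6 98 bases upstream. Hsp90b1 held 2 matches, at 212 bases upstream on the strand of the gene and at 107 bases upstream on the opposite strand, and the match in Calr lay 162 bases upstream on the opposite strand. A second form of the element (ATTGG, any base, CCACG) was in 0 of the 10 windows and in 0.0365% of all windows. The core TGACGTG of the UPR element was in the window of Hspa5 alone among the 10, 157 bases upstream, and in 2.01% of all windows. The core of the amino acid response element, TGATG, any base, AA, through which ATF4 acts, was in 0 of the 10 and in 3.97% of all. A match is a description of letters, and no match says only that these letters are not in this window. Of the 35 other windows with the ER stress response element, 15 had their gene in the table. In cluster 0, 0 of these 15 genes were at least 2-fold higher or lower than the mean of the other clusters. Over all genes 1.99% were higher and 5.48% lower, so a count of 0 among 15 is near these shares and is not a result about the element. The median log2 fold of the 15 genes was 0.15. Among them the chaperone genes Dnajc3 and Creld2 had log2 folds of 0.97 and 0.81 there, and the chaperone gene Canx 0.12. Of the genes of ER-associated degradation, the ubiquitin ligase Syvn1 had 0.89 and Derl3 0.15.

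The goblet-like and enteroendocrine-like clusters were among the 3 highest for the chaperone genes Hspa5, Hsp90b1 and Calr. The absorptive clusters 8 and 9 and cluster 3 were low for these genes, and cluster 5 was lowest for Hsp90b1 and Calr. Hspa5 encodes BiP, the Hsp70 chaperone of the ER that also holds the stress sensors inactive. Its level was 13.3 per 10000 in cluster 11 (11.6 to 15.1), 9.72 in cluster 0 (9.44 to 9.999), 9.43 in cluster 10 (8.18 to 10.8) and 6.01 in cluster 5 (5.24 to 6.89). It was 4.99 (cluster 7), 3.97 (cluster 2), 3.86 (cluster 6), 2.67 (cluster 1) and 2.57 (cluster 4). The lowest levels were 1.97 (cluster 9), 1.58 (cluster 3) and 1.31 in cluster 8 (1.09 to 1.56). Cluster 11 thus lay above all others beyond counting error, clusters 0 and 10 overlapped, and the highest level was 10.2 times the lowest. Against the mean of the other 11 clusters, Hspa5 was 3.05-fold in cluster 11 and 2.07-fold in cluster 0, with about 230 UMIs behind the first and 4749 behind the second.

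Hsp90b1 encodes GRP94, the Hsp90 chaperone of the ER. Its level was 5.53 per 10000 in cluster 11 (4.50 to 6.78), 4.67 in cluster 0 (4.49 to 4.87) and 4.34 in cluster 7 (4.10 to 4.59), and these 3 neighbours overlapped. It was 3.45 (cluster 6), 2.65 (cluster 10), 2.27 (cluster 2), 2.26 (cluster 1), 1.91 (cluster 4), 1.90 (cluster 9) and 1.86 (cluster 3). Cluster 8, at 1.46, and the neutrophil-like cluster 5, at 0.921 (0.621 to 1.28), were lowest. Calr, the calcium-binding lectin chaperone calreticulin, was at 10.8 per 10000 in cluster 0 (10.5 to 11.1), above all other clusters beyond counting error. It was 7.70 (cluster 7), 7.39 (cluster 11), 6.90 (cluster 1), 6.05 (cluster 10), 5.55 (cluster 4), 5.04 (cluster 2) and 4.72 (cluster 6). The absorptive clusters were lower, at 3.95 (cluster 9) and 2.92 (cluster 8), with cluster 3 at 4.07. Cluster 5 was lowest, at 1.33 (0.981 to 1.77), and the ranges of clusters 8 and 5 did not overlap.

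Dnajb9 and Sdf2l1 were highest in clusters 5 and 10, but these intervals overlapped those of the next clusters in order, 0 for Dnajb9 and 11 for Sdf2l1. Dnajb9 encodes ERdj4, a J-domain cofactor of BiP, and was highest in cluster 5, at 0.984 per 10000 (0.692 to 1.38) from about 35 UMIs, and in cluster 0, at 0.637 (0.568 to 0.711). It was 0.605 in cluster 11 from about 10 UMIs, 0.502 in the absorptive cluster 8 (0.371 to 0.671), 0.366 (cluster 10), 0.343 (cluster 4) and 0.293 (cluster 2). The lowest levels were 0.190, 0.187, 0.183, 0.161 and 0.112 in clusters 1, 3, 7, 9 and 6. The order differed between the absorptive clusters, since the interval of cluster 8 lay above that of cluster 9 (0.0960 to 0.249). Sdf2l1, a binding partner of ERdj3 and BiP, was highest in cluster 10, at 2.51 per 10000 (1.88 to 3.27) from about 54 UMIs in 31 cells. It was 1.67 in cluster 11 (1.12 to 2.41), 1.25 in cluster 0 (1.16 to 1.36) and 1.18 in cluster 7 (1.06 to 1.32). The other 8 clusters ran from 0.674 (cluster 4) and 0.612 (cluster 8) down to 0.316 (cluster 6) and 0.159 (cluster 5), where about 6 UMIs were counted. Of the plasma and B cell list, 9 of 12 genes were measured. Their summed level in cluster 10 was 3.28, against 28.2 (cluster 6) and between 0.686 and 3.05 in the other 10, where Sdc1, at 0.192 to 2.60, made up most of it outside cluster 5. In cluster 10 Sdc1 also made up most of the sum, at 1.72 against a mean of 1.65 in the others. The B cell marker Ighm was at 1.09 there, against a mean of 0.0407 in the others, and Jchain was listed at 0. The part of these cells in the Sdf2l1 level was not tested.

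**Figure D1:**
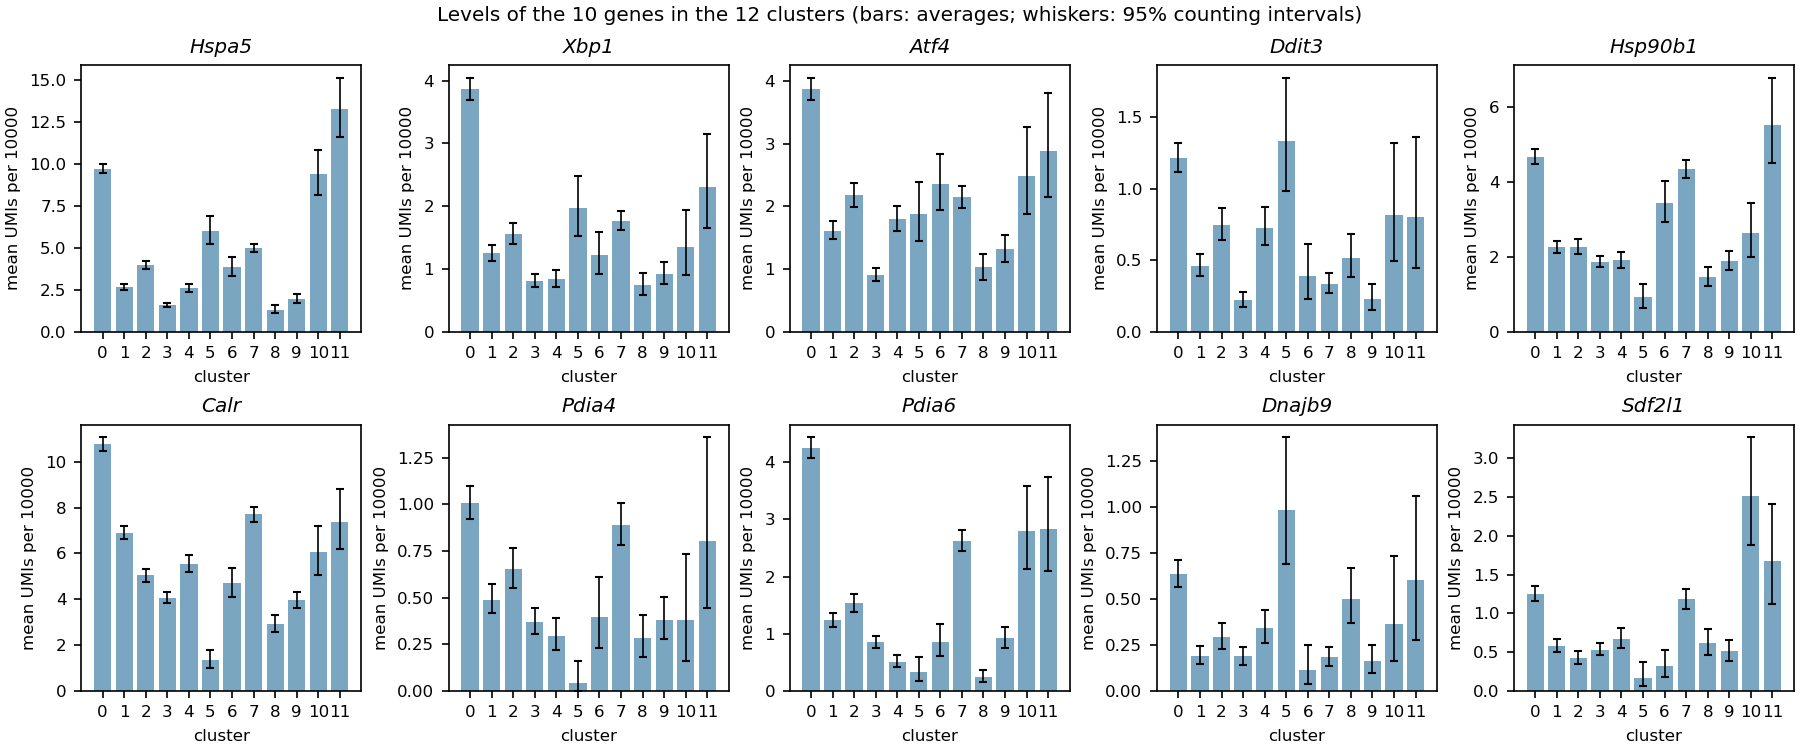
Levels of the 10 genes in each of the 12 clusters, in mean UMIs per 10000 on the vertical axes. Bars are the authors' averages and whiskers are 95% counting intervals. Cluster 0 is among the 3 highest in all 10 panels, while cluster 5 is highest for Ddit3 (1.34) and Dnajb9 (0.984) and lowest for Hsp90b1, Calr, Pdia4 and Sdf2l1.

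Both disulfide isomerases were highest in the goblet-like cluster and low in the absorptive cluster 8, where Pdia6 was at its lowest and Pdia4 at the level of 5 other clusters. Pdia6 encodes P5, an isomerase that also acts on the IRE1 sensor. Its level was 4.25 per 10000 in cluster 0 (4.07 to 4.44), above all others beyond counting error, then 2.84 in cluster 11 (2.10 to 3.75), 2.80 in cluster 10 (2.13 to 3.59) and 2.63 in cluster 7 (2.44 to 2.82). It was 1.53 (cluster 2), 1.24 (cluster 1), 0.923 (cluster 9), 0.853 (cluster 6), 0.851 (cluster 3) and 0.510 (cluster 4). Clusters 5 and 8 were lowest, at 0.329 (0.176 to 0.595) and 0.246 (0.157 to 0.370), so the highest level was 17.3 times the lowest. Pdia4 encodes ERp72, an isomerase with several thioredoxin domains. Its level was 1.01 per 10000 in cluster 0 (0.920 to 1.10), 0.889 in cluster 7 (0.782 to 1.005) and 0.806 in cluster 11 (0.443 to 1.36), which overlapped. It was 0.652 (cluster 2) and 0.489 (cluster 1), between 0.281 and 0.396 in clusters 3, 4, 6, 8, 9 and 10, and 0.0410 (cluster 5), from about 1 UMI (0.000719 to 0.158).

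All 3 transcription factors were high in the goblet-like cluster. Xbp1, the factor of the IRE1 arm, was at 3.87 per 10000 in cluster 0 (3.69 to 4.04), above all other clusters beyond counting error. It was 2.3 in cluster 11 (1.65 to 3.15), 1.97 (cluster 5), 1.76 (cluster 7), 1.56 (cluster 2), 1.35 (cluster 10), 1.25 (cluster 1) and 1.22 (cluster 6). The lowest were 0.915 (cluster 9), 0.838 (cluster 4), 0.808 (cluster 3) and 0.742 in cluster 8 (0.576 to 0.937). A level of the whole message does not tell the spliced form from the unspliced one. Atf4, the factor of the PERK arm, which is controlled mostly in translation, reached 3.88 in cluster 0 (3.70 to 4.05), then 2.88 in cluster 11 (2.15 to 3.81). It was 2.49 (cluster 10), 2.36 (cluster 6), 2.18 (cluster 2), 2.15 (cluster 7), 1.88 (cluster 5), 1.80 (cluster 4), 1.61 (cluster 1) and 1.32 (cluster 9). Clusters 8, at 1.03, and 3, at 0.912 (0.811 to 1.02), were lowest, and all 11 pairs of neighbours in this order overlapped.

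Ddit3 (CHOP), a target of ATF4, was highest in the neutrophil-like cluster 5, at 1.34 per 10000 (0.981 to 1.77) from about 47 UMIs, and in cluster 0, at 1.22 (1.12 to 1.32) from about 594, and these intervals overlapped. It was 0.814 (cluster 10), 0.805 (cluster 11), 0.745 (cluster 2), 0.728 (cluster 4), 0.514 (cluster 8), 0.462 (cluster 1) and 0.388 (cluster 6). The lowest levels were 0.333 in cluster 7 (0.271 to 0.409), 0.226 in cluster 9 (0.149 to 0.330) and 0.221 in cluster 3 (0.172 to 0.277). The proliferating-like cluster 7 was thus among the lowest for Ddit3, while it was among the 4 highest for Calr, Pdia4, Hsp90b1, Pdia6 and Sdf2l1. Leaving out mitochondrially encoded and ribosomal protein genes from the scale put cluster 0 above cluster 5 for Ddit3. In GENCODE M21 the Ddit3 gene (GRCm38 chromosome 10, 127290774 to 127296288, plus strand) overlaps Mars on the opposite strand, and Pdia6 (chromosome 12, 17266545 to 17284770, plus strand) overlaps Atp6v1c2 on the opposite strand. Hsp90b1 (chromosome 10, 86690209 to 86705509, minus strand) overlaps Gm15344 and the miRNA gene Gm25745 on its own strand and the pseudogene 1810014B01Rik on the opposite one. Pdia4 overlaps the miRNA gene Mir704 on its own strand, Dnajb9 overlaps Mir5627 on the opposite strand, and Calr has a named pseudogene, Calr-ps, so reads could be split among these. Gm4189 also overlaps Ddit3 on the opposite strand. Whether the counting used strand is not given in the sources used here.

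Counted by a fixed size, 6 of the 10 genes were at least 2-fold higher in cluster 0 than the mean of the other 11 clusters, on the scale of log2(level + 0.1). Over all 17044 genes 1.99% were, and over the 3276 genes that reach 1 per 10000 in some cluster 5.92% were; 9 of the 10 genes reach it, all but Dnajb9. At least 2-fold lower were 0 of the 10, against 5.48% and 22.9%. The 6 were Pdia6 (log2 fold 1.6), Xbp1 (1.46), Calr (1.08), Hspa5 (1.03), Atf4 (1.01) and Pdia4 (1.0002), and just under the threshold lay Ddit3 (0.92). The median of the 10 genes was 1.01 (cluster 0), against -0.08 over all genes and -0.28 over the 3276. In the same cluster the 12 goblet markers summed to 1000.3 per 10000. The count was 2 with a pseudocount of 1 and 3 with the 50 highest genes left out of the scale, where the median was 0.71 and 0.96.

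In cluster 11, 2 of the 10 genes were at least 2-fold higher, Hspa5 (1.59) and Hsp90b1 (1.11), against 11.1% of all genes and 14.0% of the 3276. The median of the 10 was 0.64, against -0.04 over all genes. In cluster 10, 1 gene was at least 2-fold higher, Sdf2l1 (1.67), against 5.77% and 11.4%. In both clusters the count moved with the setting, to between 1 and 7 (cluster 11) and between 1 and 3 (cluster 10).

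Cluster 5 went both ways. There 2 of the 10 genes were at least 2-fold higher, Dnajb9 (1.35) and Ddit3 (1.06), against 5.13% of all genes and 14.3% of the 3276. At the same time 5 were at least 2-fold lower, Pdia4 (-2.18), Calr (-2.07), Pdia6 (-2.07), Sdf2l1 (-1.995) and Hsp90b1 (-1.57), against 19.4% and 54.6%. Both the higher and the lower share thus stood near those of the 3276, and Dnajb9 is not among the 3276. Hspa5 (0.25), Xbp1 (0.36) and Atf4 (-0.12) lay between. Genes of this cluster were low in general, with a median of -1.12 over the 3276, while the neutrophil markers summed to 920.3 per 10000. Median-of-ratios scaling gave cluster 5 a size factor of 0.579. Under it 4 genes were higher and 4 lower; with a pseudocount of 1, 0 were higher and 3 lower.

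**Figure D2:**
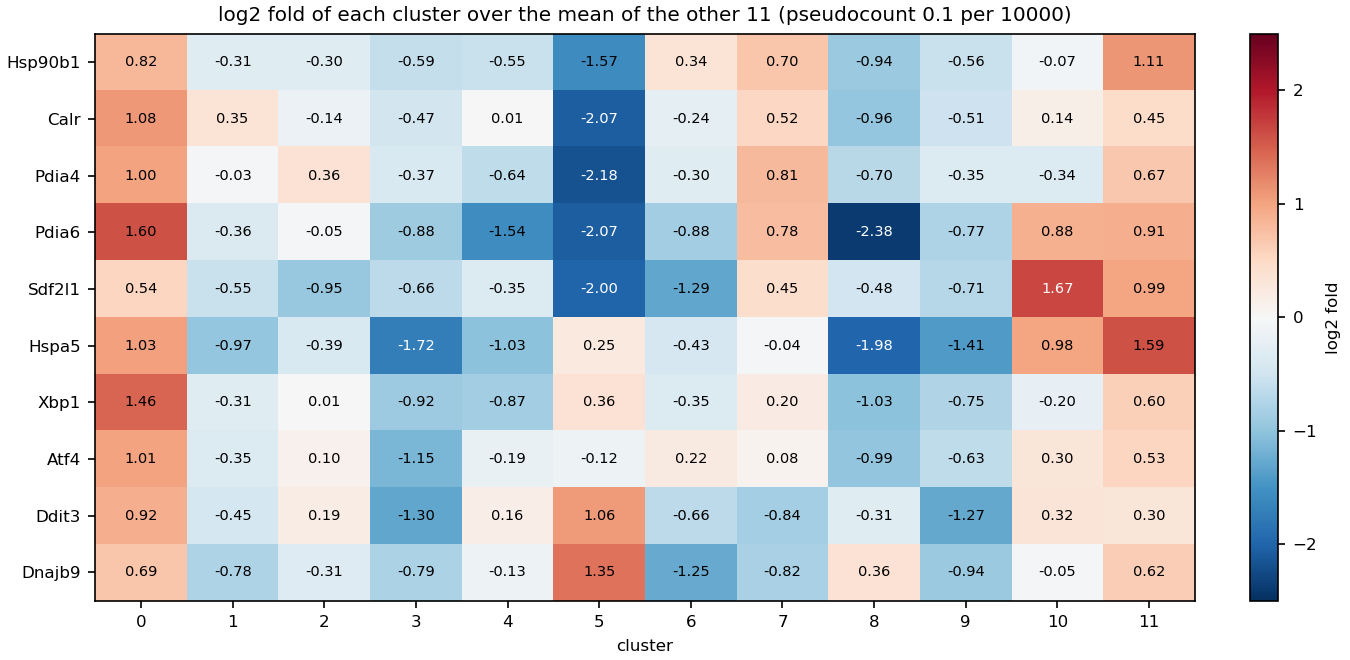
log2 fold of each cluster (columns) over the mean of the other 11 for the 10 genes (rows), with red for higher and blue for lower. In cluster 5 the rows of Hsp90b1, Calr, Pdia4, Pdia6 and Sdf2l1 are blue, while Ddit3 (1.06) and Dnajb9 (1.35) are red, and all 10 rows are red in cluster 0 (0.54 to 1.6).

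In the absorptive cluster 8, 3 of the 10 genes were at least 2-fold lower, Pdia6 (-2.38), Hspa5 (-1.98) and Xbp1 (-1.03), against 9.41% of all genes and 32.4% of the 3276. The median of the 10 was -0.95, against -0.11 over all genes and -0.41 over the 3276. It was the lowest of the 12 clusters, but without Dnajb9 cluster 5 was lower (-1.57 against -0.96 in cluster 8), and with median-of-ratios scaling cluster 3 was (-1.04 against -0.83). In cluster 9, 2 were at least 2-fold lower, Hspa5 (-1.41) and Ddit3 (-1.27), against 5.09% and 21.5%. In cluster 3, 3 were at least 2-fold lower, Hspa5 (-1.72), Ddit3 (-1.30) and Atf4 (-1.15), against 4.98% and 21.3%. In cluster 4, 2 were lower, Pdia6 (-1.54) and Hspa5 (-1.03), against 7.29% and 27.6%, and in cluster 6, Sdf2l1 (-1.29) and Dnajb9 (-1.25), against 3.77% and 17.5%. These counts of 2 and 3 stand near the share among genes of this level. With mitochondrially encoded and ribosomal protein genes out of the scale, 6 were lower in cluster 8, and with clusters 5, 6 and 10 out of the comparison 5 were.

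The ratio of one gene to another within a cluster does not depend on the scale. The Hspa5 level over that of Pdia6 was 18.3 (cluster 5), against 1.86 (cluster 3) to 5.32 (cluster 8) in the other 11 clusters, with 5.04 (cluster 4), 4.69 (cluster 11) and 4.53 (cluster 6) close to the upper end. Hspa5 over Hsp90b1 was 6.52 (cluster 5) and 3.56 (cluster 10), against 0.849 (cluster 3) and 0.895 (cluster 8). Ddit3 over Calr was 1.002 (cluster 5) and at most 0.176 in the other 11 clusters. These ratios therefore differed from cluster to cluster, with cluster 5 furthest from the rest. There Pdia6 rested on about 12 UMIs, Hsp90b1 on about 32 and Calr and Ddit3 on about 47 each, and no interval was put on a ratio.

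Across the 12 clusters the 10 genes formed overlapping blocks by the Pearson r of their log2 levels. Hsp90b1, Calr, Pdia4 and Pdia6 varied together (r from 0.82 to 0.92), as did Hspa5, Xbp1 and Atf4 (0.85 to 0.90) and Ddit3 and Dnajb9 (0.85). The lowest r were those of Dnajb9 with Pdia4 (-0.29) and Calr (-0.28), where Spearman's rho was -0.11 and 0.06 and r without clusters 5, 6 and 10 was 0.28 for both. Over all 45 pairs the median r was 0.55, and 38 pairs were above 0. Without clusters 5, 6 and 10 the median over 9 clusters was 0.83 and all 45 pairs were above 0, with r from 0.19 (Pdia6 and Dnajb9) to 0.97 (Pdia4 and Pdia6). The block of Hsp90b1 and that of Hspa5 were then not apart. Between them r ran from 0.83 (Atf4 and Pdia6) to 0.95 (Hspa5 and Hsp90b1), against 0.84 (Calr and Pdia4) to 0.97 within the block of Hsp90b1. These values describe clusters that share libraries and scale.

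**Figure D3:**
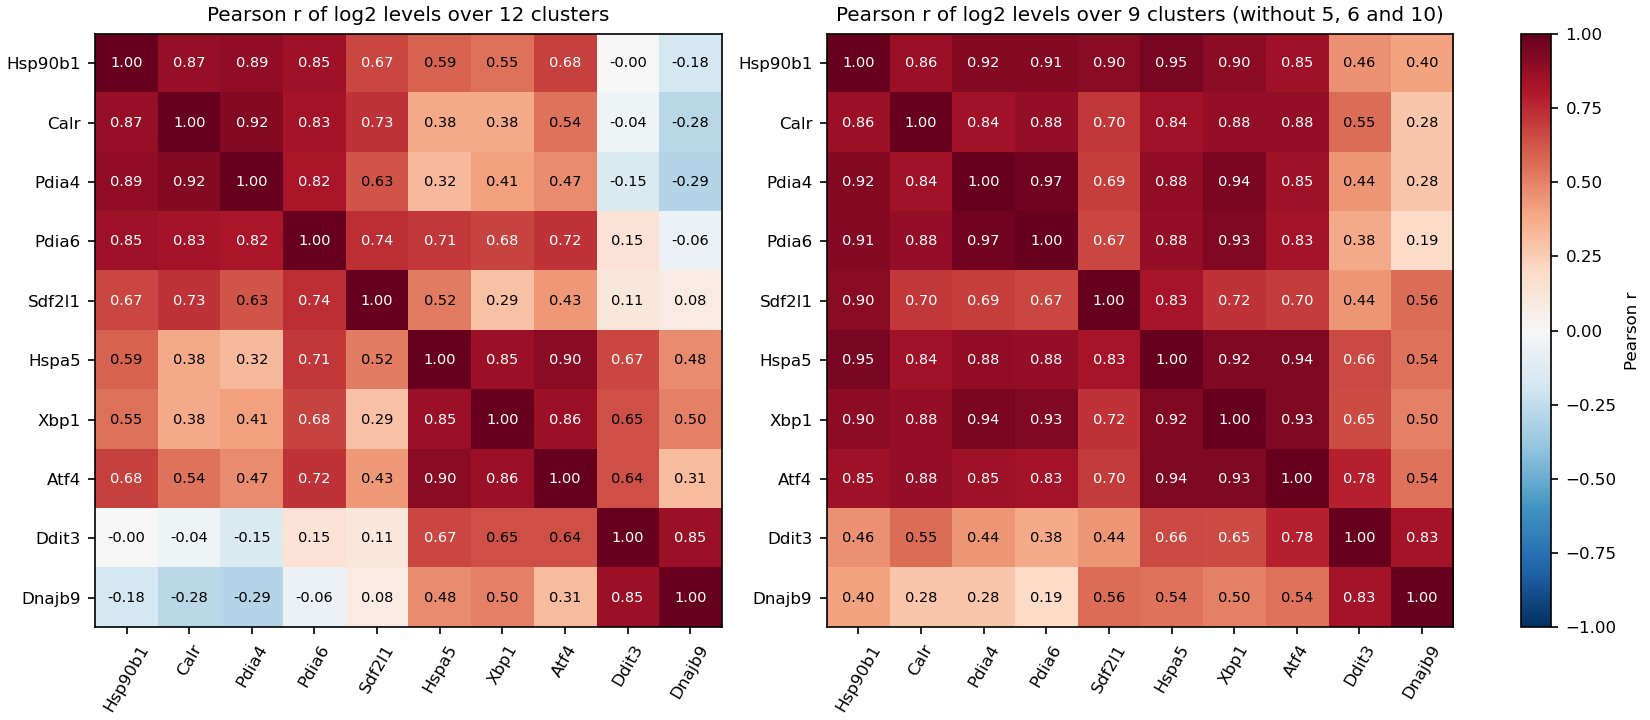
Pearson r of log2(level + 0.1) between the 10 genes over the 12 clusters (left) and over the 9 clusters without 5, 6 and 10 (right). On the left the pairs of Ddit3 or Dnajb9 with Calr and Pdia4 are below 0, and on the right every pair is above 0.

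Immediate early genes, which also respond to tissue dissociation, varied with part of the 10. The summed level of 17 such genes was 225.9 per 10000 (cluster 11), 212.9 (cluster 5) and 143.8 (cluster 2), and lowest in clusters 3 (34.3) and 9 (33.5). Over the 12 clusters its log2 level had an r of 0.89 with Ddit3, 0.82 with Hspa5, 0.74 with Atf4, 0.70 with Xbp1 and 0.69 with Dnajb9. The r was 0.29 with Pdia6, 0.21 with Hsp90b1, 0.15 with Sdf2l1, 0.03 with Calr and -0.02 with Pdia4. Without clusters 5, 6 and 10 the range over the 10 genes was 0.56 to 0.87. The part of handling in the levels of Ddit3 and Hspa5 was not tested.

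**Figure D4:**
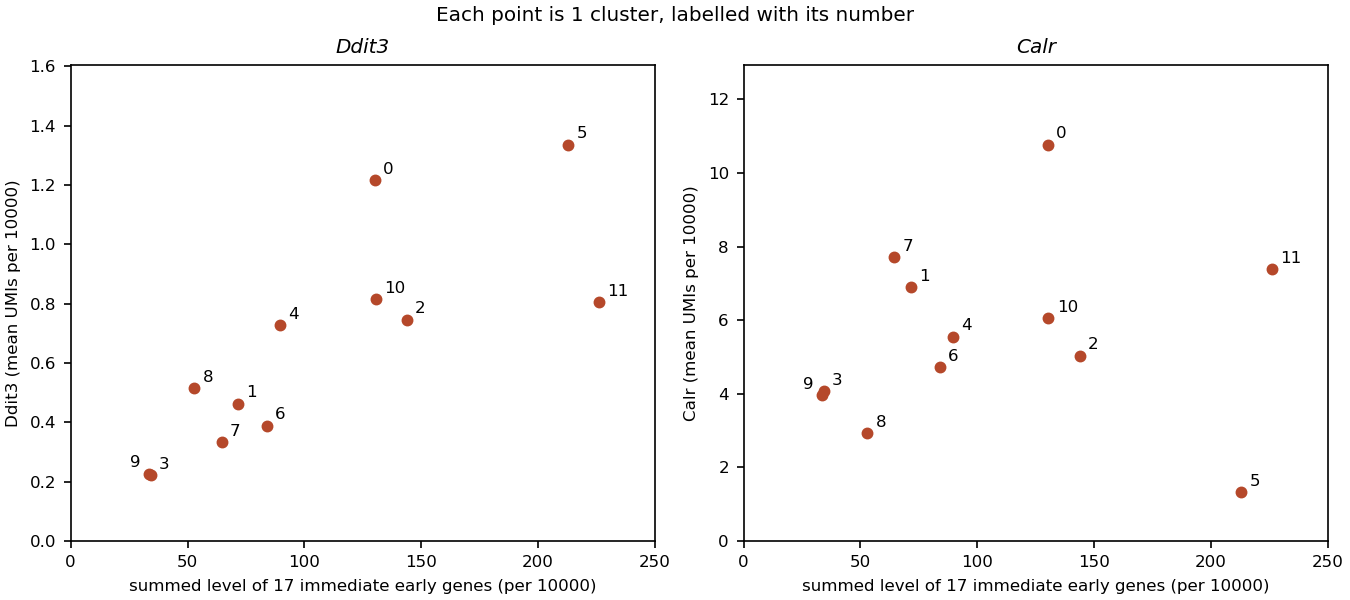
Level of Ddit3 (left) and of Calr (right) against the summed level of 17 immediate early genes, both in mean UMIs per 10000, with 1 numbered point per cluster. Ddit3 is lowest in clusters 3 and 9, where the sum is lowest, while Calr is lowest in cluster 5 (1.33), where the sum is 212.9.

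The rest of the ER machinery was compared by 7 lists, with cytosolic and mitochondrial chaperones beside them. In cluster 0, 1.99% of all genes and 5.92% of the 3276 were at least 2-fold higher, and 5.48% and 22.9% lower. The list counts for this cluster are to be read against these shares. Genes of protein entry, glycosylation and export stood higher together there. Of 28 genes of translocation, signal cleavage and N-glycosylation, 12 were at least 2-fold higher and 0 lower (median log2 fold 0.89), led by the oligosaccharyltransferase genes Ostc (4.03 per 10000 against a mean of 1.27 in the others), Ddost (5.63 against 2.01) and Krtcap2 (5.41 against 1.97). The lowest were Srp14 (log2 fold 0.10) and Sec11a (0.47). Of 20 genes of ER to Golgi transport, 8 were higher and 0 lower (0.83), led by the receptors that return ER proteins, Kdelr3 (1.11 against 0.0918) and Kdelr2 (3.72 against 1.13), and by the cargo receptor Lman1 (1.01 against 0.274).

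Of 17 other disulfide isomerases and oxidases measured, 8 were at least 2-fold higher in cluster 0 and 0 lower (median 0.68). Agr2, the isomerase needed for mucin folding, was at 161.0 per 10000 against a mean of 8.53 in the others, Qsox1 at 4.98 against 0.486 and Pdia5 at 2.16 against 0.213. Agr2 also stands in the goblet marker list. The oxidase gene Ero1l (log2 fold -0.27) and Erp29 (-0.31) were lowest. Of 17 other chaperones and cofactors, 4 were higher and 0 lower (0.70), among them the prolyl isomerase Fkbp11 (1.92 against 0.104), the disulfide reductase Dnajc10 (1.19 against 0.236) and the secreted stress factor Manf (6.35 against 1.98). Sdf2 (0.20) and calnexin, Canx (0.12), were lowest. Of 21 genes of ER-associated degradation, 4 were higher and 0 lower (0.34), led by Herpud1 (4.07 against 1.35) and Vimp (2.998 against 1.23).

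Among the ER lists, those of regulators and of the PERK arm had the lowest medians in cluster 0. The share of regulators at least 2-fold higher was near that of degradation genes. Of 16 sensors and transcription factors, 3 were at least 2-fold higher and 1 lower (median 0.03). The higher ones were Creb3l4 (1.62 against 0.0759) and Creb3l1 (2.91 against 0.918), ER-bound factors of the OASIS family, and Ern2 (2.38 against 0.349), the gut epithelial IRE1 paralogue. Cebpb was lower (0.0813 against 0.315) and Atf6 had a log2 fold of -0.99, but each mean was carried by a single cluster. Cebpb was at 2.48 per 10000 (cluster 5) and between 0.0179 and 0.325 in the other 10, and Atf6 at 2.58 (cluster 11) and between 0.0715 and 0.421. Of 24 genes of the ATF4 and CHOP branch, 3 were higher and 1 lower (0.29), with Nupr1 at 19.8 against 5.56, the tryptophan tRNA synthetase gene Wars at 1.73 against 0.509 and the cystine transporter Slc7a11 at 0.198 against 1.63. The Slc7a11 mean was likewise carried by clusters 5 (13.8) and 10 (2.39), with at most 1.02 in the other 9. Outside the compartment, 0 of 18 cytosolic and 0 of 8 mitochondrial chaperones were at least 2-fold higher or lower in cluster 0, with medians of -0.08 and -0.11. The cytosolic list there ran from Dnajb1 (log2 fold 0.86) to Hspb1 (-0.51). The 0 for cytosolic chaperones depended on the reference, as their summed level was highest in the small clusters 10 (79.5) and 11 (89.5). With the other clusters weighted by cells, or clusters 10 and 11 out of the reference, 3 cytosolic chaperones were at least 2-fold higher in cluster 0.

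In cluster 8, 9.41% of all genes and 32.4% of the 3276 were at least 2-fold lower, and the ER lists are to be read against these shares. Of 28 translocation and glycosylation genes, 7 were at least 2-fold lower, with Ostc at 0.456 per 10000 against a mean of 1.597 in the others and Rpn2 at 0.645 against 2.06. Of 17 isomerases and oxidases, 7 were lower, with Agr2 at 0.969 against 23.1 and Prdx4 at 0.0142 against 0.655. Of 17 chaperones, 6 were lower, and of 20 transport genes, 5 were, with Kdelr3 listed at 0. Cluster 0, at 161.0 for Agr2 and 1.11 for Kdelr3, raised the means that these genes were set against. Of 16 sensors and factors, 4 were lower, among them Creb3l1 (0.0544 against 1.18) and Ern2 (0.0378 against 0.562), while Atf6 was at 0.421 against 0.361. Of 24 genes of the ATF4 and CHOP branch, 9 were lower, with Nupr1 at 0.738 against 7.29, and of 21 degradation genes, 1 was, Herpud1 (0.608 against 1.67). Of 18 cytosolic chaperones, 14 were lower, with a median of -1.45, among them Hspa1a (0.133 against 3.16) and Hsp90aa1 (0.928 against 5.88), and 4 of 8 mitochondrial ones were, with Hspe1 at 0.378 against 3.64. The shares of ER chaperones, isomerases and the ATF4 and CHOP branch stood slightly above the 32.4% of the 3276, and those of the other ER lists under it. The cytosolic share stood furthest above it, followed by the mitochondrial one. The ER counts in cluster 8 are thus not read as a result about the ER.

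**Figure D5:**
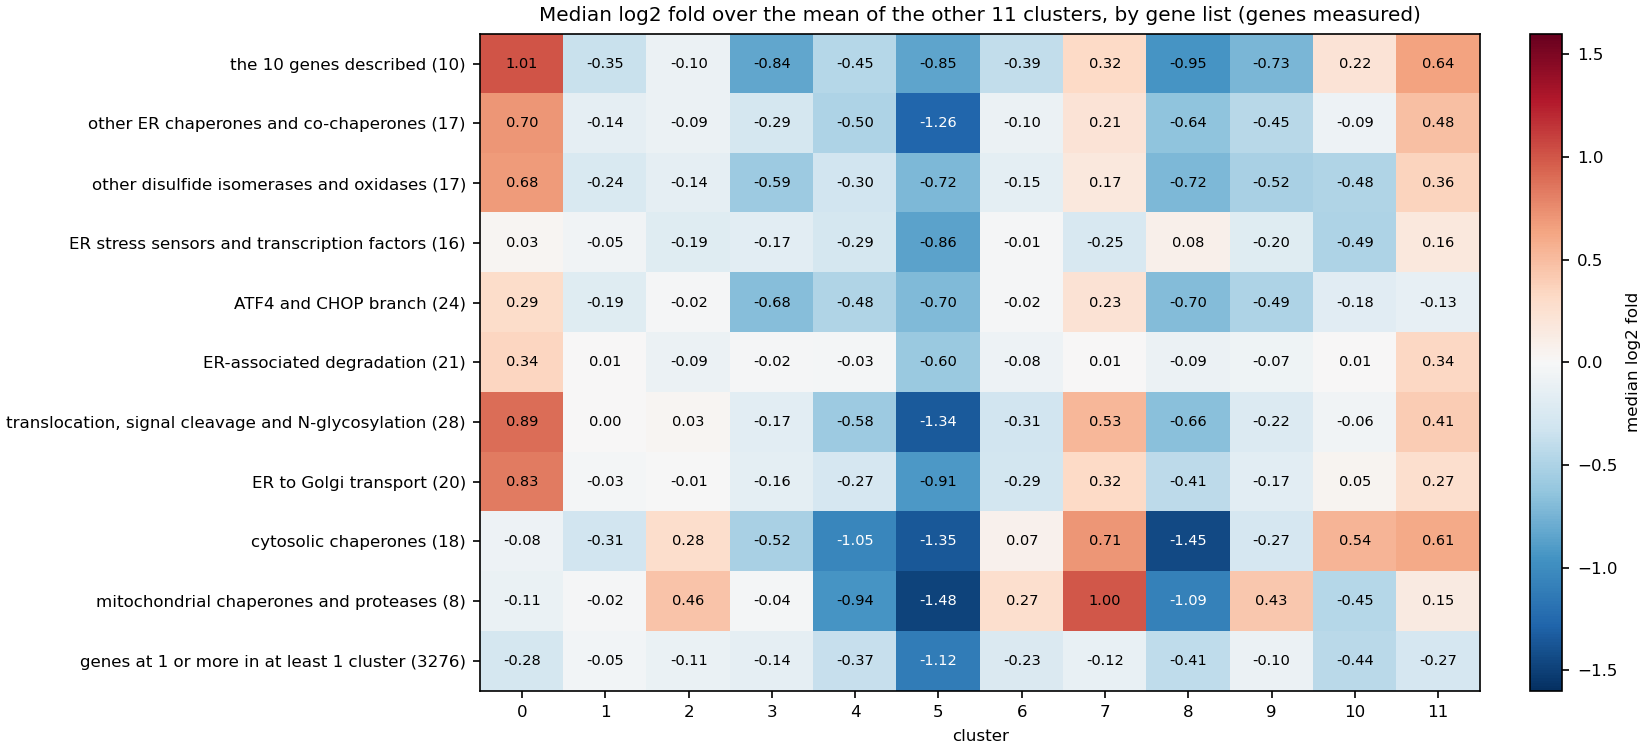
Median log2 fold of each cluster (columns) over the mean of the other 11 for the 10 genes, 9 companion lists and the 3276 genes that reach 1 per 10000 (rows, with the number of genes measured). In cluster 0 the ER folding, entry and transport lists lie between 0.68 and 0.89 and the cytosolic and mitochondrial chaperones at -0.08 and -0.11.

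In cluster 5, 4 of the 24 genes of the ATF4 and CHOP branch were at least 2-fold higher and 7 lower, against 14.3% higher and 54.6% lower of the 3276, so the higher share was near that of genes of this level. Ppp1r15a (GADD34), the phosphatase subunit that reverses the PERK signal, was at 8.94 per 10000 there, 4.50 (cluster 10) and 3.70 (cluster 11), against 0.151 (cluster 3). The ER chaperone list had 13 of 17 lower there and the translocation list 18 of 28, with medians of -1.26 and -1.34, near the -1.12 of the 3276 genes. In cluster 7, cytosolic chaperones had 7 of 18 higher and mitochondrial ones 4 of 8. Of the 10 genes 0 were, against 3.34% of all genes and 6.59% of the 3276.

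Among 3267 other genes at 1 or more per 10000 in some cluster, the pattern most like the mean of the 10 was that of Plpp1, a lipid phosphate phosphatase (Pearson r 0.92, Spearman's rho 0.92, 12 clusters). Its level was 1.96 (cluster 0) and 0.397 (cluster 11), against 0.193 (cluster 7) and 0.00727 (cluster 8). Next came Ssr1 (0.92), a subunit of the translocon-associated complex, Herpud1 (0.91), Ddit4 (0.90), Rap1gap (0.90), Dpysl2 (0.89), Reep5 (0.89), Ramp1 (0.89), Manf (0.88) and Dnajb1 (0.88). Of these 10 genes, 6 stand in a list used here: Ssr1, Herpud1, Ddit4, Manf and Dnajb1 in those of the stress and chaperone systems and Ramp1 in that of goblet markers. The share of the 3267 genes that stand in a list is not given, so this count is only a description.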

How the data were processed

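Single-cell RNA was measured in 2 libraries of 1 group. The submitters' processing notes name Cell Ranger 3.1.0, Seurat 2.3 and build mm10. How cells were filtered, how doublets were treated and how clusters were drawn is not given in the sources used here. Linear averages by cluster were deposited by the authors. Their values show a scale of 10000 UMIs per cell, as every column has that total, and no library is kept apart.

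A gene seen as a single UMI in a single cell has an average of 10000 over the product of the cluster's cell number and that cell's UMI total. Averages whose inverse came out whole within 1e-12 gave the cell numbers, which divided at least 97.2% of those products, against at most 59.6% for larger numbers. Only UMI totals that 2 or more genes agreed on were kept, for 2292 of 3082 cells (74.4%; median 12274.5 UMIs, lowest 509). Totals that were a fraction of a better supported one were dropped. Approximate UMIs used the harmonic mean of the totals, and these steps were tested on simulated data.

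With no replicate, no test was run. Folds set the log2(level + 0.1) of a cluster against that of the mean over the other 11, which understates low genes, and the threshold was 2-fold. Named genes are the 10, the 3 largest and 2 lowest of each list in clusters 0 and 8, and the 10 most alike; Ppp1r15a, Jchain, Ighm, Sdc1, Slc7a11 in cluster 5, Dnajc3, Creld2, Syvn1 and Derl3 were picked with their values known. A planned look at the ends of the proteins was not made. The genes and lists were chosen with earlier results of these data known. Of the fibroblast, endothelial and muscle list 3 of 11 genes were measured and summed to at most 0.704 per 10000. Tuft markers summed to at most 2.49, other immune markers to 527.3 in cluster 10, endocrine markers to 1328.7 in cluster 11, proliferation markers to 20.3 in cluster 7 and absorptive markers to 278.3 in cluster 9. Python 3.11.15, numpy 2.4.6, pandas 2.3.3, scipy 1.17.1 and matplotlib 3.10.9 were used.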

Additional observations from a re-analysis of the deposited data

How the results depend on the processing

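No paired analysis was possible because the deposited averages pool both libraries. Counts of the 10 genes past the threshold stayed the same or within 1.5 times in 174 comparisons with an alternative and moved further in 42. The 174 include counts of 0 that stayed at 0, so they do not measure how stable the counts above 0 were. The cause of the moves was not tested. The median of the 10 genes stayed above 0 in clusters 0 (0.71 to 1.12), 7, 10 and 11 (0.40 to 0.69) and below 0 in clusters 1, 3, 4, 5 (-1.57 to -0.05), 6, 8 (-1.14 to -0.61) and 9, and crossed 0 in cluster 2. Low counts of UMIs limit clusters 5, 6, 10 and 11.

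With a pseudocount of 1, 2 genes were higher in cluster 0, 1 was in cluster 11 and 0 were in cluster 5, while the lower ones numbered 1 in cluster 3, 0 in clusters 4 and 6, 3 in cluster 5 and 1 in cluster 9. In cluster 0 the lists then held 2 higher chaperones, 5 isomerases, 1 gene of the ATF4 and CHOP branch, 1 of degradation, 4 of translocation and 2 of transport. In cluster 8 they held 0 lower chaperones, 1 isomerase, 1 sensor, 4 of the ATF4 and CHOP branch, 0 of degradation, translocation and transport, 4 cytosolic and 2 mitochondrial chaperones. With the other clusters weighted by cells, 1 gene was lower in clusters 4 and 6, 2 were higher in cluster 10 and 3 cytosolic chaperones higher in cluster 0. Without clusters 5, 6 and 10 as reference, 1 gene was lower in cluster 4, 5 in cluster 8, and 2 cytosolic chaperones were higher in cluster 0. Without mitochondrially encoded and ribosomal protein genes, 1 gene was higher in clusters 5 and 11, 2 in cluster 10, and 6 lower in cluster 8. Without the 50 highest genes, 3 were higher in cluster 0 and 1 lower in cluster 4. With median-of-ratios scaling, 2 were lower in clusters 1 and 7, 1 in cluster 2 and 5 in cluster 3, and 4 were higher in cluster 5. Among genes at 1 or more per 10000, 1 was higher in cluster 5, 1 lower in cluster 6, and 2 degradation genes higher in cluster 0.

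At 1.5-fold, the lower genes numbered 2 in clusters 1 and 7, 1 in cluster 2, 8 in cluster 3, 4 in clusters 4 and 6 and 7 in clusters 8 and 9, and the higher ones 3 in clusters 7 and 10 and 7 in cluster 11. In cluster 0, 9 chaperones, 5 sensors, 8 genes of the ATF4 and CHOP branch, 7 of degradation, 23 of translocation, 13 of transport and 3 cytosolic chaperones were then higher. In cluster 8, 10 chaperones, 14 of the ATF4 and CHOP branch, 2 of degradation and 18 of translocation were lower. In a comparison added after the values were seen, without clusters 10 and 11 as reference, 1 gene was lower in clusters 4 and 6, 1 was higher in cluster 7, 4 were in cluster 11 and 3 in cluster 10, while 3 cytosolic chaperones were higher in cluster 0. The median r over pairs was 0.83 without clusters 5, 6 and 10. With the median total as depth, 83057 UMIs lay behind the levels, and intervals would be narrower.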
